A study of Mus musculus with 45 samples.

Results

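The 10 genes described here, Runx1, Erg, Fli1, Meis1, Mecom, Hlf, Etv6, Prdm16, Mycn and Msi2, encode regulators that are active in blood stem and progenitor cells. They were chosen by name, with earlier results of these data known but with no threshold on a measured value, out of 24333 genes in a table of ATAC gene scores, and all 10 were found in it. The gene score of a nucleus is built from accessible-chromatin fragments, so it measures how open the chromatin is and not how much RNA is made. The scores came from nuclei of Ter119+ erythroblasts, red cell precursors sorted by the surface protein Ter119, from mice in which Stag2 was intact (WT, 3 libraries) or deleted (KO, 3 libraries). Cohesin is a ring-shaped complex that extrudes chromatin loops, and Stag2 makes one of its subunits. Cells were collected 6 to 8 weeks following the final pIpC injection, and both genotypes are described as injected. The Cre driver, the strain, and the sex and age of the mice are not given in the sources used here, nor is it stated that each library came from a separate mouse, so p-values measure the spread between libraries. Of the 45 samples of the series, these 6 ATAC libraries were analysed.

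In adult bone marrow a stem cell state is held by a set of factors that bind many enhancers together. Runx1 encodes the DNA-binding subunit of core-binding factor, Erg, Fli1 and Etv6 belong to the ETS family, and Meis1 is a homeodomain factor that works with HOX proteins. Mecom and Prdm16 are zinc-finger proteins of the PRDM family, Hlf is a bZIP factor of stem cells, Mycn belongs to the MYC family, and Msi2 encodes an RNA-binding protein and thus acts on messenger RNA rather than on DNA. As red cell precursors mature under Gata1 and Klf1, the nucleus condenses and genes of the stem cell program are shut down. Fli1 is known for favouring the megakaryocyte over the red cell fate.

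The authors placed each of the 34073 nuclei in one of 3 classes, Early, Int and Late, of which Int is read here as intermediate, and in one of 11 clusters. What the classes rest on is not stated in the sources used here. If they were drawn from the same accessibility data, a gene that differs between classes may have helped to define them, and the p-values between classes then set a difference against the spread of libraries and are no independent test. The 6 libraries held 4617 to 6990 nuclei. Early nuclei were few (16 to 310 in a library, and over 50 in WT libraries 1 and 2 and KO library 1), with a median of 42959.5 fragments against 12684 in Int and 6315 in Late, and a doublet score above 0 in 50.6% of them against 22.1% and 14.3%. Of all barcodes, 725 occurred in more than 1 library. Each nucleus was scaled to the same total, so a gain at one gene lowers the score of others. Markers of the labelled cell type were present: the summed score of 19 erythroid markers was 1931 to 2402 per 1000000 in Early, 2999 to 3521 in Int and 3471 to 4132 in Late nuclei, and none was at 0 in every library. The summed score of 11 stem and progenitor markers (Kit, Cd34 and others) was 364 to 432 in Early, 134 to 178 in Int and 108 to 133 in Late nuclei. Stag2 itself scored 57.6, 60.3 and 62.0 in WT and 58.5, 61.3 and 59.0 in KO Int nuclei. In the few Early nuclei it scored 65.45, 68.1 and 62.0 in WT and 72.4, 77.8 and 84.2 in KO. Late values were 67.5, 70.2 and 71.1 in WT and 62.2, 68.1 and 65.6 in KO. A score over a whole gene does not read out the deleted stretch and so does not check the genotype.

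Promoters are shown first, as the sequence at which transcription of these genes starts; how the score weights fragments there is not given in the sources used here. Of the 10 genes, 9 had an entry in a RefSeq promoter table (GRCm38.p6, the mm10 build), with 15 transcription starts between them, and Fli1 had none. The 250 bases before each start were searched on both strands for 3 motifs. The GATA motif was searched as AGATAA, which 9.99% of the 32851 promoters of the table hold. For the ETS family the letters were CGGAAG, found in 13.6% of promoters. The RUNX motif was taken as TGTGGT, found in 14% of promoters. Runx1 is shown at both of its starts, the distal and the proximal, because its scores ran against those of the other genes, and neither stretch held any of the 3 motifs. The other 3 stretches are the ones of these genes in which a motif was found. Each is given 5′ to 3′ on the minus strand, the strand of the gene, with its matches in capitals.
Runx1 distal start, chr16:92826075-92826324: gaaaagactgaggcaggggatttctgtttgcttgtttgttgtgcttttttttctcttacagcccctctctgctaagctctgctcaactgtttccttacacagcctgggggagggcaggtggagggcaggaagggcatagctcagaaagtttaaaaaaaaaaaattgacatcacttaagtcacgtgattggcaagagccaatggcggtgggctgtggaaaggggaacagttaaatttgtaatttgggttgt
Runx1 proximal start, chr16:92697330-92697579: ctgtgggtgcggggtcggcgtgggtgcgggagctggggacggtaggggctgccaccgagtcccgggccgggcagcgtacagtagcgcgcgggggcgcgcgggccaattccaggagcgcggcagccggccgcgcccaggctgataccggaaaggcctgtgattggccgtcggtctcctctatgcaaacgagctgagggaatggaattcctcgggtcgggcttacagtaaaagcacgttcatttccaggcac
Meis1, chr11:19018970-19019219: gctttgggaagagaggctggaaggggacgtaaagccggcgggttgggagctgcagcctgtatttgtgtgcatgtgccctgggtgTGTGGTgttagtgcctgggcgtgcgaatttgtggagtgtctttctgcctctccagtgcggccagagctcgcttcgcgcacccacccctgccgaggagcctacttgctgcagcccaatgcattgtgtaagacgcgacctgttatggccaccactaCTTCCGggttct
Erg, a start inside the gene, chr16:95459349-95459598: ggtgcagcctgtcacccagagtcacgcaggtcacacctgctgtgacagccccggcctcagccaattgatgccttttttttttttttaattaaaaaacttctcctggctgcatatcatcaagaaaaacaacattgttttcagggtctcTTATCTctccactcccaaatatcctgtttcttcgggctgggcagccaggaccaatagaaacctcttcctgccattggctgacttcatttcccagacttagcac
Mecom, a start inside the gene, chr3:30013205-30013454: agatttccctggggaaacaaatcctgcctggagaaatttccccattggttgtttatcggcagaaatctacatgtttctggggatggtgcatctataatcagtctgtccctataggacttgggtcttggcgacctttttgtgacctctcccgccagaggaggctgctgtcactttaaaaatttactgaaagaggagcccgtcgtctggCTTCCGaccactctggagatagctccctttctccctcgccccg
In Meis1 the RUNX motif begins 166 bases before the start and the ETS motif, on the opposite strand, 12 bases before it. Erg held a GATA motif on the opposite strand 103 bases before that start, and Mecom an ETS motif on the opposite strand 43 bases before the one shown. The 2 motifs in Meis1 do not overlap. A match to 6 letters is a description of these windows and no evidence of binding. The deposited coordinates of the genes themselves run from 5744 base pairs for Mycn to 596713 for Mecom. A gene score is not a level per length, so scores are compared here within a gene only.

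From Int to Late nuclei, 9 of the 10 genes lost accessibility and Runx1 gained it. Among all genes tested, 52.9% fell and 29.6% rose in this comparison, so a fall was common. The median change of the 10 genes was -0.90 on the log2(score + 1) scale, against -0.15 for all 17747 genes tested. Centring the profile of each library and class on its median gene moved the latter to 0.05. The members' changes are given below under such scalings where they differ. All 9 that fell did so in 6 of 6 libraries, which 47% of genes did, and Runx1 rose in 6 of 6, which 26% did. Many markers of other cell types changed over the same step: 5 of 5 tested macrophage markers fell, 4 of 8 lymphoid, 5 of 7 megakaryocyte (1 rose), 2 of 4 mast or basophil and 7 of 12 myeloid markers (1 rose). These lists held 9, 15, 10, 8 and 16 markers, and those under a minimum mean score of 5 were not tested. The macrophage sum went from 49.9 to 65.7 in Int to 25.8 to 39.6 in Late nuclei, whereas the myeloid sum was higher in Late nuclei in 6 of 6 libraries (207 to 286 in Int, 286 to 345 in Late). With quantile normalization 1, 4, 3, 0 and 0 of them fell, and 0, 4, 3, 3 and 9 rose. Their part in the members' changes was not tested.

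**Figure D1:**
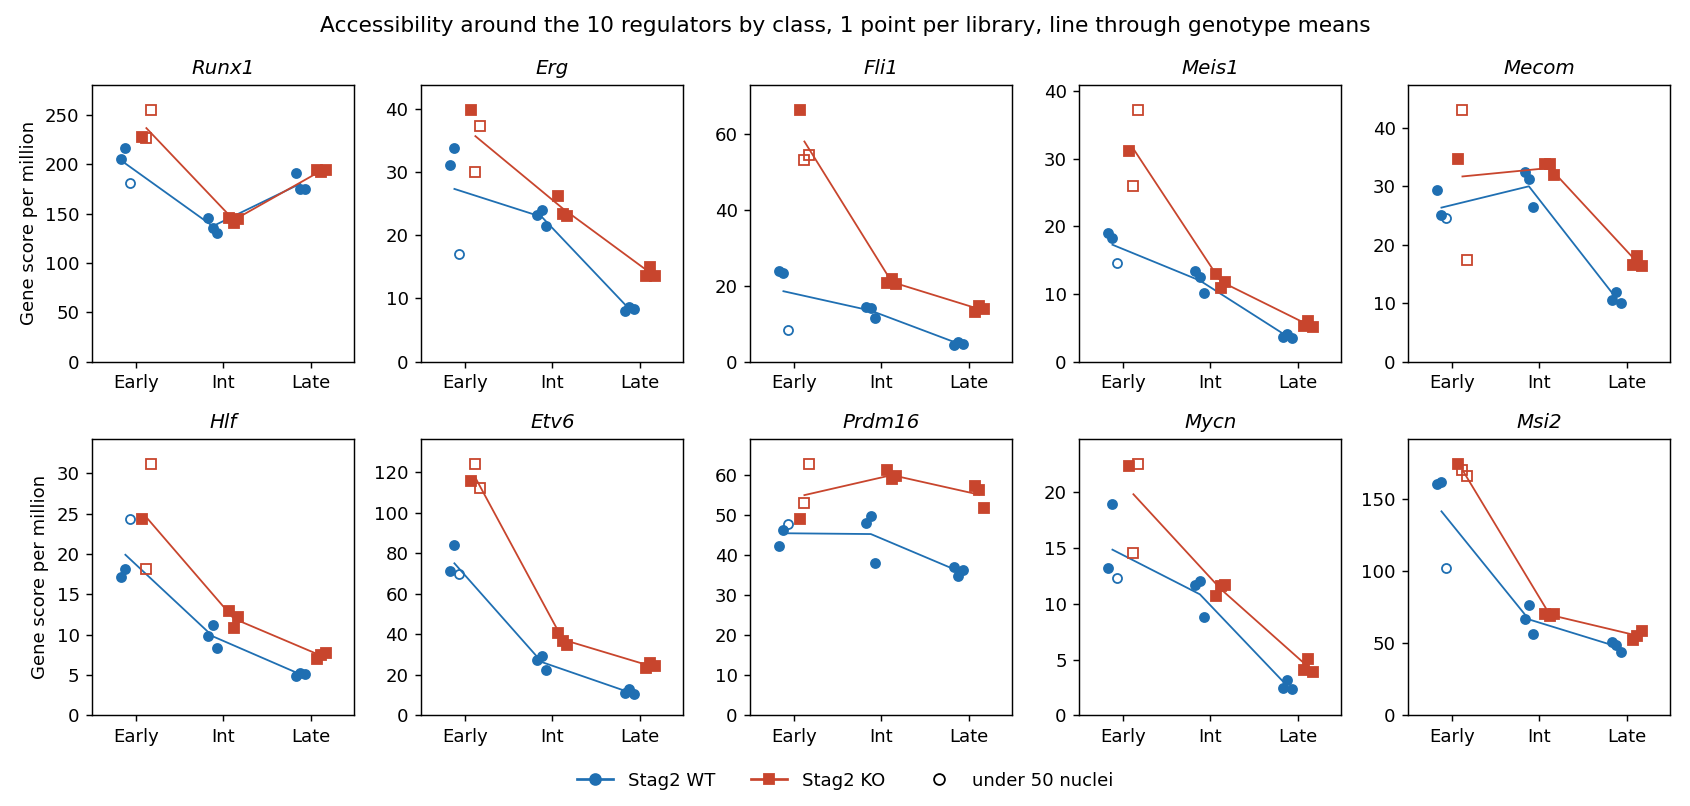
Gene score per 1000000 of each of the 10 regulators (vertical axis, from 0, scaled separately for each gene) in Early, Int and Late nuclei. Each point is 1 library, circles WT and squares KO, open where the class held under 50 nuclei, and lines join the means of 3 libraries. Runx1 turns up from Int to Late, and Fli1, Erg, Mecom, Etv6 and Prdm16 lie higher in KO than in WT in Late nuclei.

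Runx1, the core-binding factor gene, went against the rest. In Int nuclei it scored 146, 136 and 131 per 1000000 in WT libraries 1 to 3 and 145, 141 and 144 in KO libraries 1 to 3. In Late nuclei it scored 191, 175 and 175 in WT and 195, 192 and 194 in KO. Every Late value lay above every Int value, in both genotypes. The rise was 0.41 (SE 0.023, limma adjusted p = 1.6e-13), larger than that of 94.2% of the genes tested. It was called in each of the 18 other settings tried, where it ran from 0.27 to 0.61. Early nuclei scored 205, 217 and 181 in WT and 228, 227 and 255 in KO, so its mean was lowest in Int nuclei.

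Among the ETS genes, Erg and Fli1, activators of stem cell and endothelial genes, and Etv6, a repressor needed by adult stem cells, all fell. Erg scored 23.2, 24.0 and 21.5 in WT and 26.3, 23.3 and 23.1 in KO Int nuclei, and 8.01, 8.61 and 8.40 in WT and 13.6, 14.9 and 13.6 in KO Late nuclei. Its change was -1.05 (SE 0.067, limma adjusted p = 1.9e-12), and no Late value reached an Int value. Fli1 went from 14.5, 14.3 and 11.6 in WT and 20.7, 21.7 and 20.4 in KO Int nuclei to 4.53, 5.18 and 4.67 in WT and 13.01, 14.71 and 13.82 in KO Late nuclei. For Fli1 the KO Late values overlapped the WT Int values, and the fall of -0.94 (SE 0.075, limma adjusted p = 9.5e-11) is the one within each library. Etv6 scored 27.2, 29.3 and 22.4 in WT and 40.5, 36.8 and 34.8 in KO Int nuclei, and 10.9, 12.9 and 10.3 in WT and 23.2, 25.9 and 24.2 in KO Late nuclei, a change of -0.87 (SE 0.057, limma adjusted p = 3.6e-12). Here too the KO Late values overlapped the WT Int values.

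Meis1, the homeodomain partner of HOX proteins, and Mycn, of the MYC family, were the members with the lowest scores in Late nuclei relative to Int. Meis1 scored 13.4, 12.5 and 10.1 in WT and 12.96, 10.86 and 11.73 in KO Int nuclei, and 3.62, 4.10 and 3.54 in WT and 5.31, 5.96 and 5.10 in KO Late nuclei. Mycn scored 11.7, 12.1 and 8.81 in WT and 10.7, 11.6 and 11.7 in KO Int nuclei, and 2.41, 3.15 and 2.34 in WT and 4.03, 5.09 and 3.89 in KO Late nuclei. Groups of the same genotype did not overlap for either gene. The Late means of 4.60 (Meis1) and 3.49 (Mycn) lay under the minimum mean score of 5, so both were tested here only through their Int values. Mycn fell by 1.46 (SE 0.088, limma adjusted p = 8.2e-13). The change of Meis1 was -1.22 (SE 0.087, limma adjusted p = 1.4e-11). Quantile normalization gives every profile of library and class the same distribution of scores, and cyclic loess evens out trends with the level. With these the falls of Mycn (-0.83 and -0.82) and Meis1 (-0.67 and -0.65) were smaller and still called. So were those of Erg (-0.69 and -0.75) and Fli1 (-0.50 and -0.54).

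The PRDM pair diverged in size. Mecom, whose zinc-finger product is tied to stem cell self-renewal, scored 32.4, 31.2 and 26.4 in WT and 33.8, 33.8 and 31.9 in KO Int nuclei, and 10.51, 11.98 and 10.09 in WT and 16.5, 18.2 and 16.4 in KO Late nuclei. Its change was -1.15 (SE 0.058, limma adjusted p = 3.5e-14), and the classes did not overlap. Prdm16, which is also known from brown fat, scored 48.0, 49.9 and 38.1 in WT and 61.3, 59.1 and 59.9 in KO Int nuclei. In Late nuclei it scored 37.1, 34.9 and 36.3 in WT and 57.3, 56.5 and 51.8 in KO, so that it differed more by genotype than by class. Its change was -0.22 (SE 0.044, limma adjusted p = 0.00010), close to the median of all genes. The call was lost when profiles were centred on their median gene (-0.02) and in nuclei of 5000 to 10000 fragments (-0.11).

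Hlf, the bZIP factor, fell from 9.88, 11.2 and 8.32 in WT and 12.9, 10.9 and 12.2 in KO Int nuclei to 4.87, 5.27 and 5.14 in WT and 7.03, 7.46 and 7.67 in KO Late nuclei. This was a change of -0.72 (SE 0.085, limma adjusted p = 5.3e-08), which was -0.19 with quantile normalization and with cyclic loess, still past the threshold. Msi2, the RNA-binding protein gene, scored 66.8, 76.3 and 56.3 in WT and 70.2, 68.6 and 70.1 in KO Int nuclei, and 50.9, 48.9 and 43.6 in WT and 52.4, 54.8 and 58.5 in KO Late nuclei. The fall of 0.39 on the log2 scale (SE 0.036, limma adjusted p = 1.1e-09) was seen in each library and was -0.20 with median centring, still called, while values of different libraries overlapped between the classes. A fit was also limited to nuclei of 5000 to 10000 fragments, the same limits for Int and Late nuclei, whose depth may still differ inside them. In that window Runx1 was higher in Late by 0.52, and 8 genes were lower past the threshold, by 0.25 (Msi2) to 1.21 (Mycn). Prdm16, at -0.11 there, did not pass it.

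Early nuclei, where the stem and progenitor markers summed highest, were set against Late nuclei as well. In the 3 libraries with at least 50 Early nuclei, 9 of the 10 genes were lower in Late than in Early nuclei and none was higher by limma, also at an unadjusted p under 0.05 (0 genes); of all 18088 genes tested, 61.1% were lower and 23.6% higher. The median change was -1.70 for the 10 genes and -0.54 for all genes. Etv6 went from 71.4 and 83.9 in Early nuclei of WT libraries 1 and 2 and 116 in KO library 1 to 10.9, 12.9 and 23.2 in Late nuclei of the same libraries. That change of -2.50 (SE 0.098, limma adjusted p = 1.4e-07) was the largest of the 10. Mycn (-2.18), Fli1 (-2.14), Meis1 (-2.13), Erg (-1.72), Msi2 (-1.69), Hlf (-1.63) and Mecom (-1.15) followed. Mycn and Meis1, whose Late scores in these 3 libraries were 2.41 to 4.03 and 3.62 to 5.31, passed the minimum mean score only through their Early values. Runx1 was lower by 0.21 on the log2 scale (SE 0.054, limma adjusted p = 0.0048), but this value depended on the scaling. It was 0.53 when profiles were centred on their median gene, -0.75 with quantile normalization and -0.86 with cyclic loess. Its call was lost without WT library 2 (-0.16) and with no variance trend. Prdm16 changed by -0.12 (interval -0.38 to 0.13, limma adjusted p = 0.33), and it was 0.62 with that centring. Without KO library 1 Prdm16 was called lower (-0.29), so that all 10 genes were then lower. The fall of Mecom was no longer called with quantile normalization (-0.05) or cyclic loess (-0.07). With all 6 libraries, thin ones included, limma called 9 lower and none higher (0 at an unadjusted p under 0.05).

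In the first step, from Early to Int nuclei, 8 genes were lower and Prdm16 was higher, where 47.5% of the 19602 genes tested were lower and 26.6% higher. Etv6 (-1.45, SE 0.063, limma adjusted p = 2.0e-07) and Msi2 (-1.21, SE 0.055, limma adjusted p = 2.1e-07) had the largest falls, and both held in every setting tried. Fli1 (-0.99), Hlf (-0.75), Meis1 (-0.73), Runx1 (-0.60), Mycn (-0.59) and Erg (-0.49) fell less, and these calls depended on the scaling. With profiles centred on their median gene, with quantile normalization and with cyclic loess, 3 genes were lower and 2 were higher. Erg was then 0.09 to 0.12. All genes shifted too, to a median of 0.39, 0.03 and 0.01 in these 3 settings. Of all calls 76.8%, 53.35% and 51.1% were then higher. The changes from Early were means over WT libraries 1 and 2 and KO library 1, with no genotype term. Fli1 changed by -0.69 and -0.67 in these WT libraries and by -1.63 in KO library 1, and Meis1 by -0.47, -0.52 and -1.20. For Runx1 the KO value (-0.65) lay between the WT values (-0.49 and -0.67). Whether the changes from Early differ by genotype was not tested. Mecom scored 29.4 and 25.2 in Early and 32.4 and 31.2 in Int nuclei of WT libraries 1 and 2, and 34.7 and 33.8 in KO library 1. Its difference was 0.13 (interval -0.06 to 0.33, limma adjusted p = 0.19), and it was called higher in Int nuclei with median centring (0.71), quantile normalization (0.68) and cyclic loess (0.71). For Mecom a fall was thus called from Int to Late and not from Early to Int. The 2 steps share the Int nuclei, and whether they differ in size was not tested. The rise of Prdm16 was 0.20 (SE 0.068, limma adjusted p = 0.023) and was not called with all 6 libraries (0.06). In Late nuclei some markers of other lineages summed lower than in Early nuclei. Lymphoid markers summed to 178 to 231 in Early against 99.0 to 131 in Late nuclei, and mast or basophil markers to 86.5 to 125 against 39.0 to 47.8. Macrophage markers summed to 50.4 to 90.2 against 25.8 to 39.6 and megakaryocyte markers to 354 to 430 against 267 to 322. Myeloid sums overlapped (218 to 397 against 286 to 345), while 11 of 12 tested myeloid markers were lower in Late nuclei and 1 was higher (median -0.82, against -0.54 for all genes). From Early to Int, of these lineages only the mast or basophil sums lay apart (45.7 to 64.1 in Int). Lymphoid (139 to 184 in Int), macrophage (49.9 to 65.7), megakaryocyte (309 to 370) and myeloid sums (207 to 286) overlapped those of Early nuclei. Their part in the members' differences was not tested.

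The fall from Int to Late was measured in each genotype. In WT 9 of the 10 genes fell and Runx1 rose, against 48.6% and 27.4% of all genes, and in KO 8 fell and Runx1 rose, against 47.5% and 25.9%. The KO change of Prdm16 was -0.12 (interval -0.25 to 0.01, limma adjusted p = 0.083). It was called lower in 4 of 18 other settings, and over the 18 it ran from -0.17 to 0.07. Runx1 rose by 0.39 in WT and 0.43 in KO. Erg fell by 1.35 on the log2 scale in WT and by 0.74 in KO, Fli1 by 1.31 and 0.57, Etv6 by 1.14 and 0.59, and Mecom by 1.39 and 0.92. Meis1 changed by -1.44 and -0.99, Mycn by -1.70 and -1.21, Hlf by -0.82 and -0.63, and Msi2 by -0.46 and -0.33. The falls of Hlf were not called with quantile normalization (-0.18 in WT, -0.21 in KO) or cyclic loess (-0.20 and -0.17), nor was its KO fall in nuclei of 5000 to 10000 fragments (-0.39), where that of Msi2 was lost too (-0.15). The WT fall of Prdm16, -0.31, was lost with median centring (-0.10).

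**Figure D2:**
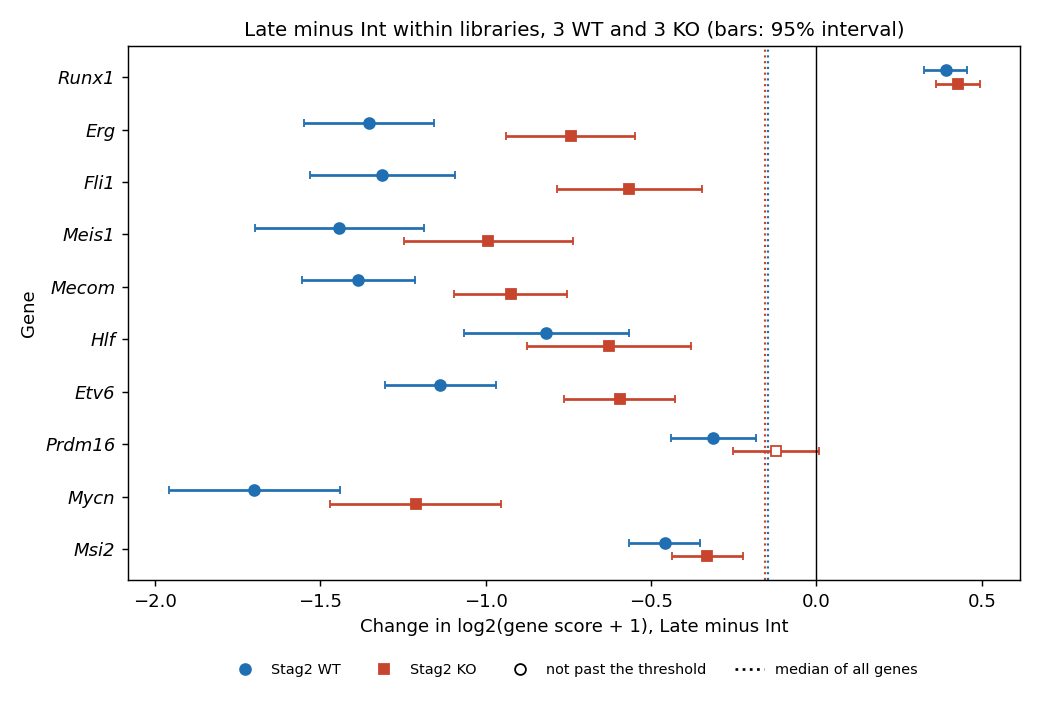
Change from Int to Late nuclei in log2(gene score + 1) (horizontal axis) for each of the 10 genes, in 3 WT (circles) and 3 KO (squares) libraries, with 95% intervals from limma; open symbols did not pass the threshold, and dotted lines mark the median of all genes. Runx1 lies to the right of 0 at 0.39 and 0.43, and the WT falls of Erg, Fli1 and Etv6 are larger than the KO falls.

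The difference between the genotypes' changes was tested itself. For Fli1 the KO effect was 0.75 larger in Late than in Int nuclei (SE 0.15, limma adjusted p = 0.0042), for Erg 0.61 (SE 0.13, limma adjusted p = 0.0074), for Etv6 0.54 (SE 0.11, limma adjusted p = 0.0058) and for Mecom 0.46 (SE 0.12, limma adjusted p = 0.018). These 4 of 10 genes stand against 5.35% of all genes called in this direction. Within libraries the groups were apart: the Int to Late change of Erg was -1.43, -1.38 and -1.26 in WT and -0.90, -0.61 and -0.72 in KO, and that of Fli1 was -1.49, -1.30 and -1.15 in WT and -0.63, -0.53 and -0.53 in KO. Every KO library thus lay above every WT library for these genes, as it did for Etv6, Mecom, Meis1, Mycn and Runx1, and as was true of 15.9% of all genes. With the variance trend taken on the mean difference instead of the mean level, an alternative chosen after the data were seen, limma called none of the 10 (6 at an unadjusted p under 0.05; adjusted p = 0.060 for Fli1, 0.073 for Erg, 0.086 for Etv6 and 0.10 for Mecom), nor did it call any in nuclei of 5000 to 10000 fragments (2 at an unadjusted p under 0.05; Fli1 0.75, adjusted p = 0.21; Erg 0.37, adjusted p = 0.44; Etv6 0.39, adjusted p = 0.44; Mecom 0.45, adjusted p = 0.29). Without WT library 1, WT library 3 or KO library 2, the number called was 2, 7 and 1. Calls over all genes, in either direction, were then 413, 2700 and 375, against 1329 with all 6 libraries. Int to Late differences of Meis1 (0.45, adjusted p = 0.12) and Mycn (0.49, adjusted p = 0.095) between the genotypes, and those of Hlf, Prdm16, Msi2 and Runx1, did not pass the threshold in limma.

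In Late nuclei, 7 of the 8 genes tested were more accessible in KO than in WT, a class in which 32.9% of all 15886 genes tested were higher and 18.5% lower. None of the 8 was lower in limma, also at an unadjusted p under 0.05 (0 genes). Meis1 and Mycn fell under the minimum mean score of 5 and were not tested there. Their values did not overlap between genotypes, as was true of 36.8% of the genes tested in this direction, and without the minimum both were called higher (Meis1 0.44, limma adjusted p = 0.011; Mycn 0.55, limma adjusted p = 0.0077), as 35.9% of 24027 genes then were. Fli1 differed most, with WT Late values of 4.53 to 5.18 and KO values of 13.01 to 14.71, a difference of 1.36 (SE 0.10, limma adjusted p = 2.4e-07). Its WT mean of 4.79 lay under the minimum, so it was tested only through its KO values. Etv6 was higher by 1.04 (SE 0.093, limma adjusted p = 1.5e-06), Erg by 0.69 (SE 0.091, limma adjusted p = 4.5e-05), Mecom by 0.60 (SE 0.093, limma adjusted p = 0.00014) and Prdm16 by 0.60 (SE 0.060, limma adjusted p = 3.8e-06). Hlf was higher by 0.46 (SE 0.10, limma adjusted p = 0.0023), which was not called with quantile normalization (0.10) or cyclic loess (0.08), and Msi2 by 0.21 (SE 0.066, limma adjusted p = 0.018). The call of Msi2 was lost with median centring (0.14), with no variance trend, without WT library 3 (0.14) and without KO library 3 (0.16). Runx1, at 175 to 191 in WT and 192 to 195 in KO, differed by 0.10 (interval 0.01 to 0.19, limma adjusted p = 0.057). It was called higher in 5 of 18 other settings, in which it was 0.11 to 0.16, among them without WT library 1 (0.14).

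In Int nuclei 3 of the 10 genes were higher in KO, where 12.7% of the 19465 genes tested were, and none was lower in limma (0 also at an unadjusted p under 0.05), where 7.1% of genes were. Fli1 was higher by 0.61 (SE 0.13, limma adjusted p = 0.00076), Etv6 by 0.50 (SE 0.093, limma adjusted p = 0.00028) and Prdm16 by 0.41 (SE 0.074, limma adjusted p = 0.00018), and for all 3 the genotypes did not overlap, with KO above WT, as for 22.8% of genes. Fli1 was not called in nuclei of 5000 to 10000 fragments (0.53, limma adjusted p = 0.12), nor Prdm16 with no variance trend (0.41, limma adjusted p = 0.056). The other 7 genes ranged from -0.01 for Meis1 (interval -0.31 to 0.29) to 0.27 for Hlf (interval -0.03 to 0.58). Early nuclei were not tested between genotypes, as 3 of the 6 libraries held under 50 of them. There Fli1 scored 24.0, 23.2 and 8.45 in WT and 66.2, 53.2 and 54.4 in KO, and Etv6 71.4, 83.9 and 69.8 against 116, 124 and 112. Meis1 scored 19.0, 18.3 and 14.6 in WT and 31.1, 26.0 and 37.2 in KO Early nuclei. Runx1 (181 to 217 in WT, 227 to 255 in KO), Prdm16 (42.3 to 47.9 and 49.2 to 62.9) and Msi2 (102 to 162 and 166 to 174) lay apart as well, so that 6 of the 10 genes did not overlap, with KO above WT, as was true of 12.6% of genes. Erg, Mecom, Hlf and Mycn overlapped, Mecom with 29.4, 25.2 and 24.5 in WT against 34.7, 43.1 and 17.4 in KO.

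**Figure D3:**
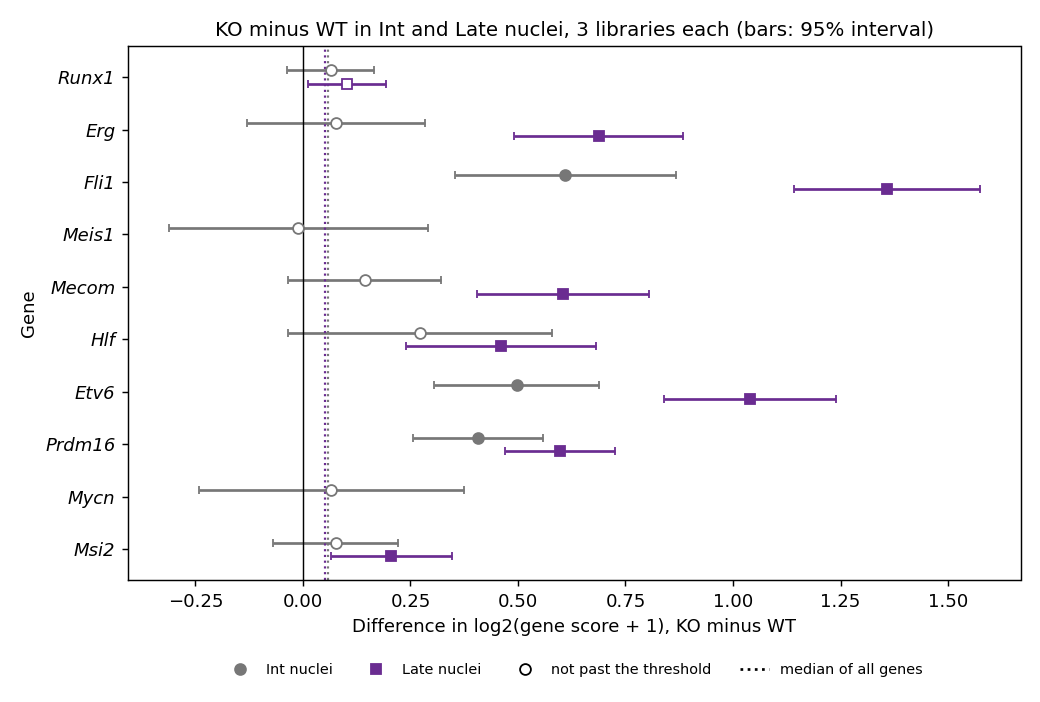
Difference in log2(gene score + 1) between KO and WT (horizontal axis) in Int (circles) and Late (squares) nuclei for each gene, 3 libraries a genotype, with 95% intervals from limma; open symbols did not pass the threshold, and dotted lines mark the median of all genes. In Late nuclei Fli1 stands farthest right at 1.36, Runx1 is at 0.10, and Meis1 and Mycn have no Late symbol because they were not tested.

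Other features of the nuclei moved with the genotype. In Late nuclei the 19 erythroid markers summed to 3978 to 4132 in WT and 3471 to 3571 in KO, with 15 of 19 called lower and none higher. Stem and progenitor markers summed to 108 to 121 in WT and 133 in KO (4 of 6 tested called higher), myeloid markers to 286 to 298 and 312 to 345 (6 of 12), lymphoid markers to 99.0 to 108 and 123 to 131 (2 of 6), megakaryocyte markers to 267 to 312 and 306 to 322 (4 of 6, with 2 lower), mast or basophil markers to 39.0 to 43.0 and 46.1 to 47.8 (0 of 2) and macrophage markers to 25.8 to 28.3 and 38.8 to 39.6 (2 of 2). These 6 lists held 11, 16, 15, 10, 8 and 9 markers, and those under the minimum mean score were not tested. No marker of any list was at 0 in every library. The share of Late nuclei with a doublet score above 0 was 6.13% to 13.5% in WT and 11.5% to 25.4% in KO, and the share of ends falling in peaks, as a median over nuclei, was 64.1% to 66.4% in WT and 60.3% to 61.8% in KO. In Int nuclei erythroid markers summed to 3244 to 3521 in WT and 2999 to 3179 in KO (11 of 19 lower), and myeloid markers to 207 to 243 and 274 to 286 (5 of 14 higher). The share of Int nuclei with a doublet score above 0 was 10.3% to 20.2% in WT and 25.6% to 41.0% in KO. Depth differed by genotype in Int nuclei, with median fragments of 12877, 12671 and 10121 in WT and 14532, 13911 and 14998 in KO. In Late nuclei these medians overlapped (5693 to 6812 in WT, 6043 to 6503.5 in KO). Limited to nuclei with a doublet score of 0, 8 of the tested members were called higher in KO in Late nuclei and 3 in Int nuclei. Of all genes, 7573 of 15832 were then called in Late nuclei (63.25% of them higher) and 3117 of 19650 in Int nuclei (63.5%). With quantile normalization fewer markers were called higher in KO Late nuclei: 0 of 6 stem and progenitor, 1 of 12 myeloid, 1 of 6 lymphoid, 1 of 6 megakaryocyte (none lower) and 0 of 2 macrophage markers, while 15 of 19 erythroid markers were lower there too. The part of doublets, of depth, of the other cell type markers and of the share in peaks in the members' differences was not tested.

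Of the 11 clusters, 7 were nearly all of 1 genotype, and 4 were mixed: C7, which holds most Early nuclei (50.4% KO), C5 (73.0% KO), and the small C1 (45.7%) and C4 (51.7%). Of Late nuclei, most WT ones were in cluster C3 (0.74% KO) and most KO ones in C2 (97.4% KO), while Int nuclei were mainly in C9, C11 and C6 for WT and in C8 and C10 for KO, with C5 shared. Genotype and cluster thus largely coincided in Late nuclei. The 58 to 68 WT nuclei a library in C2, nearly all of them Late, gave scattered values that were not tested, with Fli1 at 6.22 ± 8.64 (SD, n = 3) against 13.69 ± 0.62 in KO, Erg at 23.4 ± 13.6 against 14.02 ± 0.66 and Etv6 at 18.3 ± 15.1 against 24.2 ± 1.42. In C2 the WT libraries spanned the KO values for these 3 genes, so the difference seen over all Late nuclei was not resolved within that cluster. In KO nuclei the highest Int scores of Fli1 (27.2 ± 0.28, SD, n = 3), Etv6 (45.4 ± 3.19), Prdm16 (71.8 ± 3.43) and Msi2 (88.0 ± 2.30) were in C8, against 17.9 ± 0.70, 32.1 ± 1.57, 50.9 ± 0.75 and 59.7 ± 1.14 in C10. In WT nuclei Msi2 was also higher in C9 (83.4 ± 8.17) than in C11 (61.0 ± 7.08), whereas Mecom was higher in C11 (34.7 ± 3.34 against 28.4 ± 2.17) and Fli1 was alike in both (12.5 ± 2.59 and 13.8 ± 1.44). Median fragments were 21159.5 in C8 and 15384 in C10, and 17356 in C9 and 14791 in C11. The part of depth in these cluster differences was not tested. In C5, the cluster that both genotypes share, limma called none of the 10 genes between KO and WT (0 also at an unadjusted p under 0.05), with Fli1 at 15.6 ± 7.61 in WT and 17.9 ± 1.18 in KO, Etv6 at 27.3 ± 9.35 and 35.8 ± 5.27, and Prdm16 at 50.9 ± 6.11 and 63.0 ± 3.76. Only 143 to 261 WT Int nuclei a library lay in C5, at a median depth of 4716.5 fragments over the cluster, and 171 genes in all were called there.

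**Figure D4:**
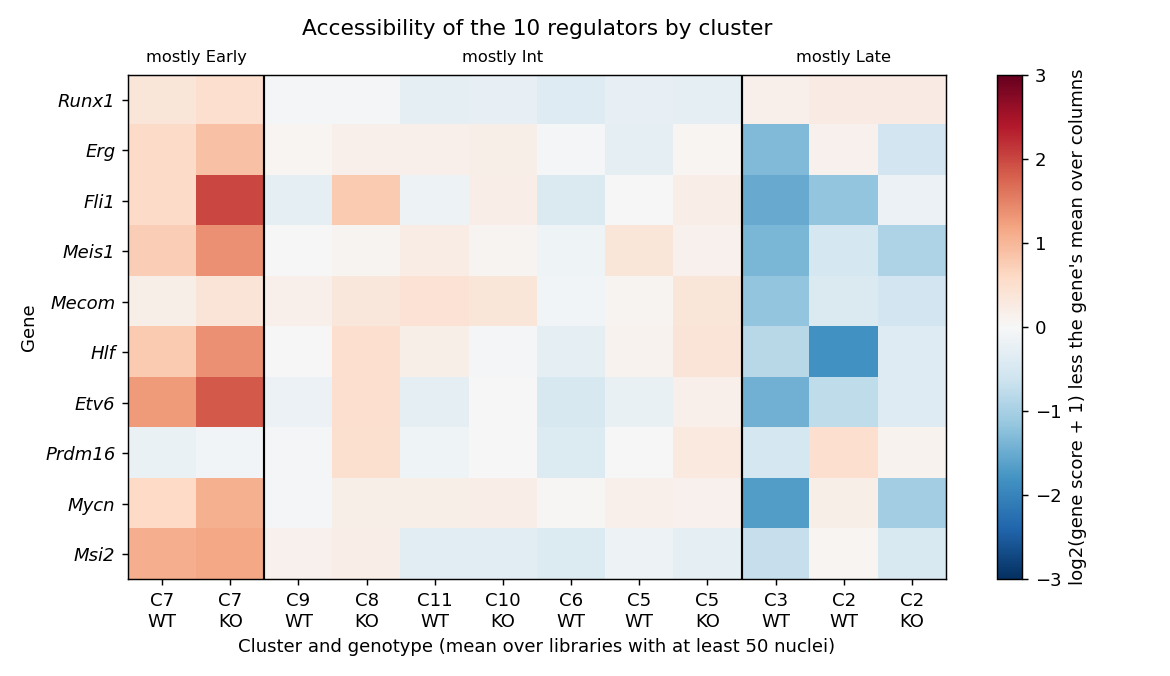
Mean gene score of each gene by cluster and genotype, as log2(score + 1) less the mean of the gene over the 12 columns (colour), over libraries with at least 50 nuclei in the cluster. The C7 KO column is 1 library and the C2 WT column rests on 58 to 68 nuclei a library; 9 genes are blue in C3, the main Late cluster of WT, where Runx1 is red.

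The share of nuclei in which a gene had any score was also taken, in nuclei of 5000 to 10000 fragments. Runx1 was above 0 in 79.1% to 80.1% of WT and 79.2% to 82.3% of KO Int nuclei and in 88.38% to 91.02% of WT and 88.5% to 90.9% of KO Late nuclei. Fli1 was above 0 in 10.6% to 16.3% of WT and 25.1% to 30.5% of KO Int nuclei, and in 8.43% to 9.20% of WT and 20.7% to 22.8% of KO Late nuclei. Meis1 went from 11.5% to 13.3% of WT Int nuclei to 5.97% to 6.51% of WT Late nuclei, and from 13.8% to 15.4% to 8.49% to 8.86% in KO. In Late nuclei this share was 14.2% to 16.3% in WT and 23.7% to 24.5% in KO for Erg, and 13.9% to 19.9% and 27.7% to 29.4% for Etv6. It was 18.15% to 21.99% and 25.3% to 27.2% for Mecom, and 33.8% to 37.2% and 48.6% to 50.8% for Prdm16. For Mycn it was 3.36% to 3.81% and 5.56% to 6.37%, and for Hlf 9.32% to 9.98% and 10.8% to 12.7%. For Msi2 the genotypes overlapped (45.3% to 52.0% and 49.5% to 53.9%). From Int to Late the share did not fall for every gene: Prdm16 went from 47.0% to 47.8% up to 48.6% to 50.8% in KO, and in WT library 1 Msi2 was at 49.04% and 49.34%. In Int nuclei Erg lay apart between the genotypes in this share (19.6% to 22.7% in WT, 26.3% to 31.1% in KO), although its Int scores overlapped. How often other genes differ in this share was not computed. Over nuclei of all depths the share for Runx1 was 80.6% to 85.5% in WT Int and 77.4% to 83.0% in WT Late nuclei, so that its order turned with depth, while for Fli1 it was 16.4% to 23.7% and 7.24% to 8.28%.

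How alike the genes were is given over the 15 profiles of library and class with at least 50 nuclei, which share libraries and depth, so that the correlations are descriptions. Erg, Meis1 and Mycn followed each other closely (Pearson r = 0.98 for each pair), as did Etv6 and Hlf (0.98), and Etv6 followed Fli1 (0.95). Msi2 followed Etv6 (0.93) and Hlf (0.93). Prdm16 reached at most 0.60, with Fli1, and Runx1 ranged from -0.35 with Mecom to 0.44 with Msi2, so that these 2 genes stood apart from the other 8. Among 18367 genes, the gene on another chromosome most like each was Cdh15, a cadherin gene, for Runx1 (r = 0.989), Prkcb, a protein kinase C gene, for Mecom (0.996), Map3k5 for Etv6 (0.996), Itpka for Msi2 (0.996), Wnk2 for Hlf (0.994), Spata18 for Meis1 (0.993) and Klf4, a Krüppel-like factor gene, for Mycn (0.991). For Erg it was 1110002J07Rik (0.994), for Fli1 Mir8095 (0.98) and for Prdm16 Mir467h (0.952), which was the lowest of these values.

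Relatives and partners of the 10 genes, from lists of the families and pathways, moved in both directions from Int to Late. Their counts stand beside 52.9% of all genes lower and 29.6% higher, and those of the ETS and the TALE and HOX lists are near or under these shares. Of 18 stem and progenitor partner factors 13 fell and 5 rose, with a median change of -0.69 against -0.15 for all genes. Zfp521 (-1.36) and Gfi1b (-1.03), a repressor needed by red cell precursors, had the largest falls, and Cbfa2t3 (0.50) and Lmo2 (0.41), which act in complexes with Gata1 and Tal1, the largest rises. In the MYC network 5 of 9 rose and 3 fell (median 0.14). Myc fell (-1.20), and of the MYC antagonists Mxd4 (0.68) and Mxd1 (0.46) rose while Mxd3 (-0.80) fell. In the PRDM family 8 of 9 fell (median -0.38), Prdm8 (-1.16) and Prdm11 (-1.13) the most, and Prdm2 rose (0.26). Prdm8, at 2.18 to 5.14 in Late nuclei, passed the minimum mean score only through its Int values. These 3 lists kept the sign of their median with the other scalings.

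Other lists depended on the scaling. Among 14 further ETS genes tested 3 rose and 7 fell (median -0.19), with Ets1 (-0.97) and Ets2 (-0.71) lowest and Elk1 (0.44) highest, but with quantile normalization 5 rose and 5 fell. Of 10 tested surface and signalling genes of stem cells 8 fell and Txnip (0.35) rose, Kit (-1.12) and Tek (-1.01) falling the most. Tek, at 3.91 to 6.78 in Late nuclei, passed the minimum mean score only with its Int values. That list's median of -0.44 became 0.08 with quantile normalization, where 5 rose and 4 fell. Of 7 stem cell RNA-binding genes, related to Msi2 by role, 5 fell, Igf2bp3 (-0.93) the most, and the median of -0.40 became 0.22 with quantile normalization. Of the RUNX relatives, Runx2 rose (0.15), Runx3 fell (-0.33), and Cbfb, which encodes the partner subunit, fell (-0.26) but had the opposite sign with quantile normalization and cyclic loess. Of 9 tested TALE and HOX genes 2 rose and 5 fell (median -0.31, and -0.02 with quantile normalization), with Meis2 (-1.38) and Pbx3 (-0.90) lowest. Meis2, at 2.31 to 5.10 in Late nuclei, passed the minimum mean score only through its Int values. Of the 3 listed bZIP relatives of Hlf, Nfil3 rose (0.31) and none was called lower.

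Between the genotypes these lists were split as well. Gata2, a factor of stem and progenitor cells, scored 21.2, 24.3 and 17.4 in WT and 54.0, 48.2 and 48.2 in KO Int nuclei, and it was higher in KO by 1.23 in Int and 1.21 in Late nuclei. The counts that follow stand beside 32.9% of all genes higher and 18.5% lower in KO Late nuclei, and 12.7% and 7.1% in Int nuclei, and some are near those shares. Of the 18 partner factors 4 were higher and 10 lower in KO Late nuclei, with Ikzf1 (-0.53) and Bcl11a (-0.46) lowest, and 2 were higher and 6 lower in Int nuclei, Myb (-0.38) the lowest. The median of the partner list in Late nuclei was -0.14, against 0.05 for all genes. Among ETS genes 6 of 14 were higher and 2 lower in KO Late nuclei, Ets1 by 1.11 and Ets2 by 0.87. The ETS median was 0.11, and -0.05 with quantile normalization. Of 7 tested TALE and HOX genes 4 were higher and none lower (median 0.33, and 0.07 with quantile normalization or cyclic loess), with Hoxa7 at 1.19. Runx3 was higher in KO Late nuclei by 0.46, Prdm11 by 0.83 and Dbp, a relative of Hlf, by 0.44. Hoxa7 scored 3.30 to 4.53 in WT and 8.93 to 11.9 in KO Late nuclei, and Prdm11 3.56 to 4.74 and 7.52 to 8.41. Both lay under the minimum mean score of 5 in WT, so they were tested there only through their KO values. In the MYC network 2 of 9 were higher and 2 lower.

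Genes that start within 100 kb of a member were looked at as its neighbours. Whether such neighbours share fragments in this score is not given in the sources used here. Runx1, Erg, Hlf, Etv6 and Mycn had none in the table. Ets1, 94.8 kb from Fli1, was called in the same direction as Fli1 in each of the 8 comparisons, among them -0.97 from Int to Late (SE 0.061, limma adjusted p = 1.8e-12) and 1.11 for KO minus WT in Late nuclei (SE 0.10, limma adjusted p = 1.5e-06). The 2 tested neighbours of Mecom went the other way, both rising from Int to Late, Actrt3 by 0.22 in all libraries and Mynn by 0.26 in WT, and neither was called between the genotypes (the larger of the 2 differences was 0.05, of Actrt3, in Int and -0.04, of Mynn, in Late nuclei). Of the 2 neighbours of Prdm16, Actrt2 was higher in KO Int nuclei by 0.55 and the transcript 5930403L14Rik in KO Late nuclei by 0.81, and that transcript begins 0.5 kb from the start of Prdm16. The transcript 0610039H22Rik, 99.0 kb from Msi2, fell by 0.50 on the log2 scale from Int to Late.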

How the data were processed

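Single nuclei of sorted Ter119+ erythroblasts were profiled with the 10x Genomics multiome assay, per the labels' protocols, and the 6 ATAC libraries were used. The submitters' processing notes name Cell Ranger and mm10 for them; how fragments were weighted around a gene is not given in the sources used here. The deposited gene score is a signal per gene and nucleus that the authors scaled to about 10000 per nucleus (9999.855 to 10000.12 when checked); 25.2% of values were above 0. The deposited table of nuclei, per the file headers, holds the count of fragments (at least 1000 per nucleus), a doublet score and the authors' class and cluster; it listed each nucleus 2 times and 1 copy was used. The score table's rows carry no names and were taken in the order of the deposited gene list: 13 of 19 erythroid markers were then in the top 10% of genes. Of the symbols, 23860 of 23863 lay on the same chromosome in a GRCm38.p6 table.

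For each library and class the mean score over nuclei was taken and rescaled to a sum of 1000000. Comparisons used log2(score + 1) and limma 3.58.1 (R 4.3.3; lmFit, then eBayes, whose variance trend followed the mean level; two-sided), with Python 3.11.15, pandas 2.3.3 and matplotlib 3.10.9 for summaries and plots. This scale understates changes of low genes. Only those whose mean reached 5 were tested, and p-values were adjusted over all of them by Benjamini-Hochberg with a threshold of 0.05. Classes were compared by differences within a library, and Early nuclei only where a library had at least 50. Comparisons with Early nuclei had no genotype term. Intervals are at 95%. The script was tested on simulated data. All 10 members are named, plus up to 2 genes a direction from each list, neighbours within 100 kb and 1 most similar gene each. Members, lists and tests were chosen with earlier results of these data known. The labels do not say that a replicate number is shared between genotypes, so numbers were not taken as pairs. Same-numbered WT and KO libraries deviated together with correlations of -0.08 to 0.19, and differently numbered ones with -0.26 to 0.18. Other pseudocounts, filters, scalings, weights, depth windows and left-out libraries were tried. The other 39 samples were not analysed here.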

Additional observations from a re-analysis of the deposited data

Results flagged for a closer look

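The KO effect, KO minus WT in log2(gene score + 1), was larger in Late than in Int nuclei for 4 of the 10 genes, and for 5.35% of all genes, by a test of that difference itself: Fli1 by 0.75, Erg by 0.61, Etv6 by 0.54 and Mecom by 0.46. For each of them 3 of 3 KO libraries lay above every WT library, as was also the case for Meis1, Mycn and Runx1, which were not called, and for 15.9% of all genes. The limma adjusted p was 0.0042, 0.0074, 0.0058 and 0.018, and in nuclei of 5000 to 10000 fragments, where none of the 4 passed the threshold, the differences were 0.75, 0.37, 0.39 and 0.45. With the variance trend on the mean difference limma called none of the 10 (6 at an unadjusted p under 0.05), and 28 of all genes in place of 1329.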

How the results depend on the processing

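Each count and gene was recomputed under other settings, of which nuclei with a doublet score of 0 and a variance trend on the mean difference were chosen after the data were seen. A value kept its status if it stayed called or stayed not called. From Int to Late, 173 of 175 single-gene values of the 10 genes kept their status and none changed sign. For KO minus WT in Late nuclei 128 of 139 kept it and none changed sign, and in Int nuclei 162 of 186 kept it and 18 changed sign. In Int nuclei only 3 of the 10 genes were called in the main fit, so many of the 162 stayed not called. A minimum mean score of 20 left fewer genes to test (5 from Int to Late, 7 from Early, 3 between genotypes in Late nuclei). Of these, 4 fell from Int to Late, 4 in WT and 3 in KO, and 5 fell from Early to Int. In Late nuclei 2 were higher in KO, and 2 had a larger KO effect than in Int nuclei. Mecom (Late mean 13.9) and Etv6 (17.9) reached 20 from Int to Late only through their Int values. Fli1 did so from Early to Int mainly through its Early values. Calls over all genes were 8611 of 10330 from Int to Late (56.1% of them higher) and 9687 of 12241 from Early to Int (41.3%). They were 4560 of 9890 between genotypes in Late nuclei (41.0%) and 601 of 10330 for the larger KO effect (49.75%).

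The larger KO effect in Late nuclei, called for 4 genes, was called for 2 with quantile normalization, 0 in nuclei of 5000 to 10000 fragments and 0 with the trend on the mean difference (limma; 2 and 6 at an unadjusted p under 0.05). Leaving out 1 library gave 1 to 7, and over all genes 1329 calls became 15 in that window and 28 with that trend. With 1 library left out the calls over all genes were 375 to 2700. Late minus Early had 2 genes higher with median centring and 1 each with quantile normalization and cyclic loess. Int minus Early had 3 lower and 2 higher under each of these 3 scalings, and 0 higher without a variance trend, in nuclei with a doublet score of 0 and with all 6 libraries, and 0 to 1 when 1 library was left out. Over all genes, 76.8%, 53.35% and 51.1% of calls from Early to Int were higher under the 3 scalings. From Early to Late the shares were 62.25%, 54.6% and 50.6%. In cluster C5 alone 0 of 3 calls between genotypes in Int nuclei were found.

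Signs turned as follows, in the order median centring, quantile normalization, cyclic loess where 3 values are given. From Int to Late in KO, Prdm16 was 0.069 with median centring and 0.020 in nuclei of 5000 to 10000 fragments. From Early to Late, Runx1 was 0.53 with median centring, and Prdm16 was 0.62, 0.38 and 0.29, and -0.29 to 0.017 when 1 library was left out. From Early to Int, Erg was 0.086, 0.11 and 0.12. The KO effect of Hlf in Late less Int nuclei was -0.038 with quantile normalization. For KO minus WT in Int nuclei, Runx1 was -0.11 and Mecom -0.032 with median centring, Erg -0.10, -0.11 and -0.064, and Mycn -0.11, -0.10 and -0.099. There Msi2 was -0.10 with median centring, -0.0071 in nuclei of 5000 to 10000 fragments and -0.11 in C5, where Runx1 was -0.025, and Meis1 was 0.28 in that window. Leaving out 1 library gave -0.12 to 0.068 for Meis1, -0.064 to 0.14 for Mycn and -0.036 to 0.18 for Msi2. The cause was not tested.

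Of all calls from Int to Late 35.9% were higher, and 54.4%, 54.2% and 51.5% under the 3 scalings. Between genotypes the share was 64.2% in Int nuclei against 24.4% with median centring, and 64.0% in Late nuclei against 46.5% with quantile normalization. Without a variance trend 1921 and in C5 171 genes were called in Int nuclei, against 3858. WT and KO libraries share only a number: same-numbered correlations were 0.13, -0.08 and 0.19 in Int and 0.09, 0.05 and 0.05 in Late nuclei. Differently numbered ones ran from -0.26 to 0.18 in Int and from -0.07 to 0.02 in Late nuclei. In Late nuclei every same-numbered value was thus the higher. With the replicate block, calls over all genes were 4527 in Int and 7982 in Late nuclei (without it 3858 and 8161) and 1844 for the difference between the KO effects. The depth window was not run for Early nuclei, which were too few in it.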
